A study of Homo sapiens with 12 samples.

Results

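The genes described here are 38 human genes of homologous recombination, of the Fanconi anaemia pathway and of the checkpoint that answers damaged DNA. They were taken by name from a list chosen with earlier results of these data known, so shares over the members describe this list only. Each of the 38 symbols matched 1 of the 62069 gene identifiers of the deposited read-count table. All 38 passed the filter on low counts, as did 13248 genes in all. RNA-seq was done on IMR90 ER:RAS cells, fetal lung fibroblasts carrying a RAS protein fused to part of the oestrogen receptor, which 4-hydroxytamoxifen (4OHT) switches on. The 12 libraries formed 3 groups of 4, all from passage 15 cells at day 6, and all cells carried ER:RAS. The DMSO group (libraries 17 to 20) received the solvent. The 4OHT group (libraries 21 to 24) received 4OHT at 100 nM and is called senescent in the series design. The 4OHT+3DA group (libraries 29 to 32) received 4OHT with 3-deazaadenosine (3DA), known to inhibit S-adenosylhomocysteine hydrolase. The dose of 3DA is not given in the sources used here. No library of cells given 3DA without 4OHT, or of 4OHT-treated cells without ER:RAS, was analysed here, so effects of 4OHT itself and of active RAS cannot be told apart. The labels do not say that the libraries of a group came from separate cultures, so the spread behind each p-value may be technical only.

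Homologous recombination repairs a DNA double-strand break by copying the sister chromatid. Broken ends are bound by the MRE11-RAD50-NBN complex and cut back by nucleases, BRCA2 and its partners load a recombinase on the exposed single strand, the filament invades the sister duplex, and helicases and nucleases take the joined strands apart. The Fanconi anaemia pathway deals with crosslinks between the strands: a core complex attaches ubiquitin to the FANCD2-FANCI clamp, and recombination completes the repair. The kinases ATM and ATR signal the damage and halt the cell cycle through CHEK2 and CHEK1. Because a sister chromatid is needed, recombination works in the S and G2 phases, and many of its genes are known to be transcribed in dividing cells. Senescence is a lasting exit from the cell cycle.

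The libraries held between 9451160 and 19291493 counted reads. Levels are in CPM, which here means counts relative to the effective size of each library. The 18 replicate pairs differed by more than counting noise, with chi-square values of 3.02 to 38.7 for each degree of freedom. Among the 4OHT+3DA libraries, 31 stood apart when each gene's log level was taken relative to its mean over the 12 libraries. The rank correlation of this relative level with GC content was −0.54 in library 31 and −0.24 in library 30. In the other libraries it was −0.0065 to 0.16. The members had a median transcript GC content of 41.45%, against 47.6% over the genes tested, and library 31 gave the highest of the 4 values for 24 of 38 members, library 32 the lowest for 19. Results on 4OHT+3DA are therefore given with and without library 31 where they differ. The 8 fibroblast markers summed to 10410 to 11330 CPM with DMSO, 5488 to 6061 CPM with 4OHT and 4683 to 4953 CPM with 4OHT+3DA, whereas the 7 immune markers summed to at most 1.12 CPM, with CD3E and TYROBP at 0 reads throughout, and the 6 endothelial markers to at most 6.39 CPM, with PECAM1 and CDH5 at 0. The 8 epithelial markers summed to 124 to 147 CPM with DMSO, 55.1 to 59.9 CPM with 4OHT and 41.9 to 53.7 CPM with 4OHT+3DA, mostly the keratins KRT18 and KRT19, while SFTPC was at 0. Their part in the results was not tested.

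The comparison of 4OHT with DMSO asks how these genes stood when RAS had been active for 6 days. Of the 38 members, 32 fell and 1, ATM, rose. Over all genes tested, 25.5% fell and 26.5% rose. The median log2 fold change of the members was −1.61, against −0.011 over all genes, and 24 members fell by more than 2-fold. All 4 libraries of the 4OHT group lay below all 4 of the DMSO group for 32 members, against 25.1% of all genes. The remaining 5, PALB2, RAD50, NBN, FANCM and ATR, did not pass the test. Each of the 32 falls held in every alternative that tested the gene, RMI2 being left untested by a minimum mean CPM of 1. In bulk RNA, fewer cells of a type and less RNA per cell cannot be told apart.

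Addition of 3DA asks how far the same genes differed from 4OHT alone. With 4OHT+3DA, 28 of 38 members rose over 4OHT and none fell, by edgeR or at an unadjusted p under 0.05 (0 lower, 33 higher); DESeq2 called 31 higher and 0 lower, and limma-voom 27 and 0. Over all genes tested, 14.4% rose and 12.4% fell. The members' median log2 fold change was 0.97, against 0.0051 over all genes, and 18 rose by more than 2-fold. For 24 members all 4 libraries with 3DA lay above all 4 without it, against 12.8% of all genes. Without libraries 30 and 31 together 22 rose, and without any 1 library 25 to 32 rose and 0 fell.

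The third comparison, 4OHT+3DA against DMSO, asks what distance from the DMSO cells was left. It shares its samples with the other two comparisons, so its values are set beside theirs as a description only. Here 22 of 38 members were lower and 3 were higher, and 13 did not pass the test, against 24.6% of all genes lower and 27% higher. The median was −0.52, against 0.0086 over all genes, and 8 members were lower by more than 2-fold, compared with 24 when 4OHT alone was set against DMSO. For 20 members all 4 libraries lay below the DMSO libraries (21.9% of all genes), and for 2, NBN and ATR, all lay above (22.8%). Without libraries 30 and 31 the split was 25 lower and 1 higher. Summed over the 38 members, the level was 685 to 722 CPM in the DMSO libraries, 367 to 395 CPM with 4OHT and 510 to 743 CPM with 4OHT+3DA, where library 31 gave the highest sum. NBN, the member with the highest CPM, gave a large part of these sums. Its means were 87.3 CPM with DMSO, 99.4 CPM with 4OHT and 143 CPM with 4OHT+3DA, and it stood at 201 CPM in library 31.

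**Figure D1:**
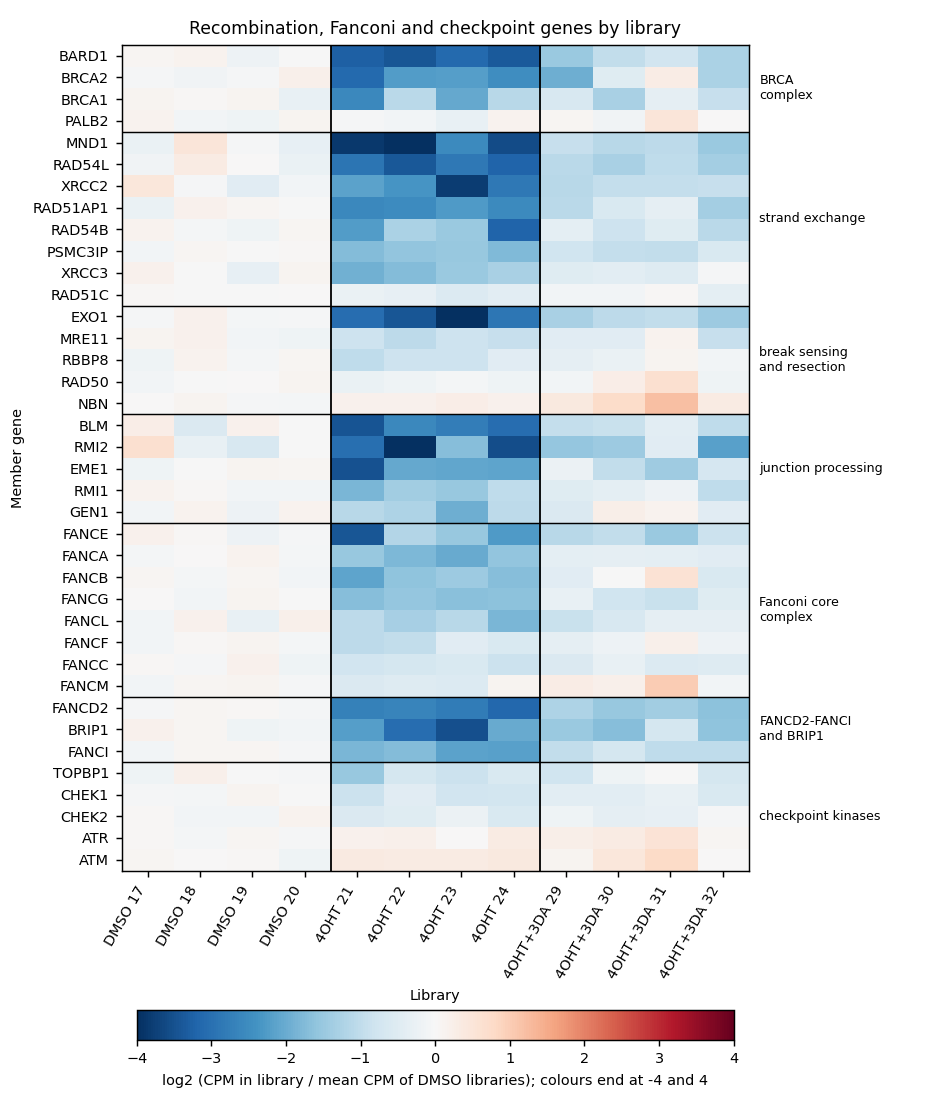
Colour gives log2 of the CPM in each library (columns) over the mean CPM of the 4 DMSO libraries, for the 38 members (rows) grouped by role, with the scale ending at −4 and 4. The 4OHT columns are blue for most rows, the 4OHT+3DA columns paler, and ATM, ATR and NBN are at or above the DMSO level.

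**Figure D2:**
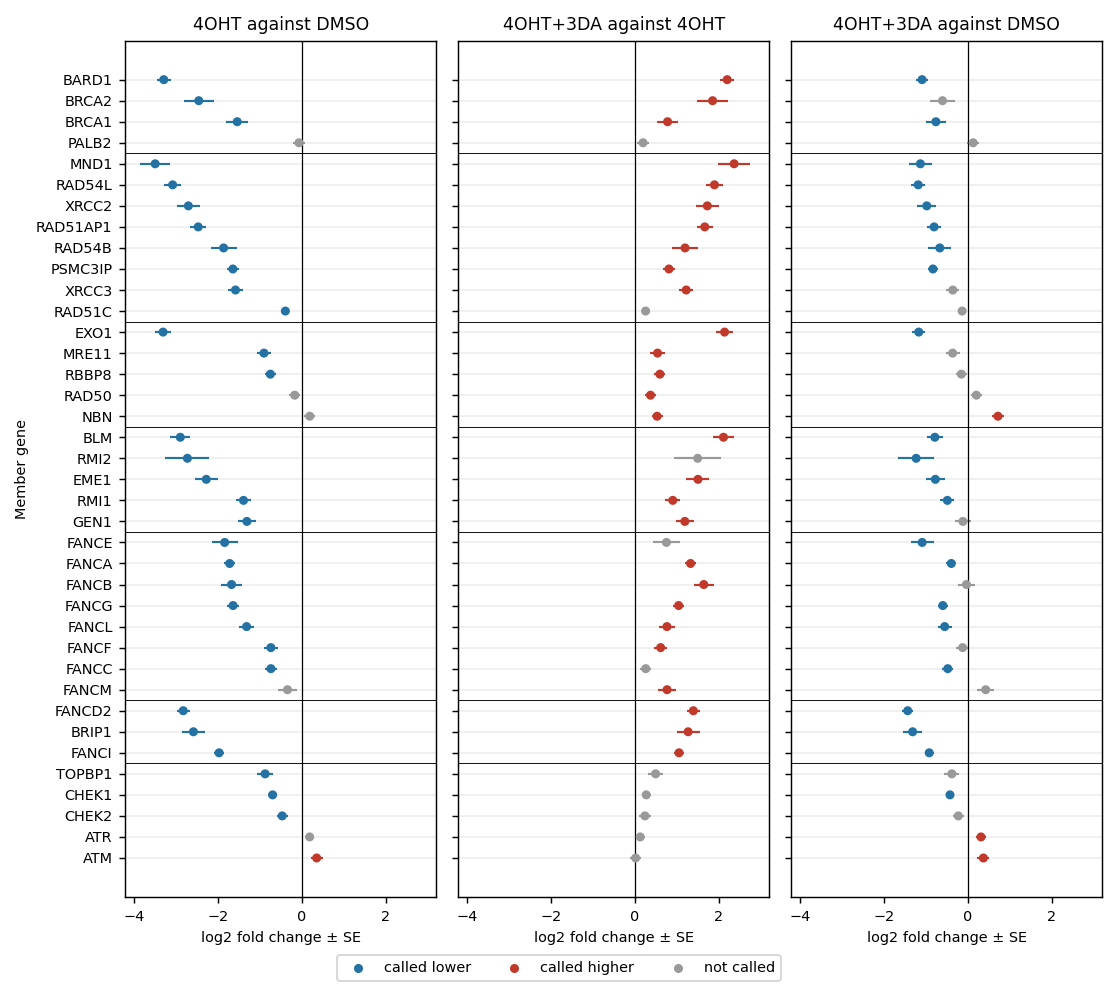
Points are log2 fold changes from edgeR and bars their SE, for each member (rows) in each of the 3 comparisons (panels), coloured by the call at an adjusted p under 0.05. Of the 38 members 32 were called lower with 4OHT, 28 called higher with 4OHT+3DA against 4OHT, and 22 called lower and 3 higher with 4OHT+3DA against DMSO.

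In the BRCA complex, 3 of 4 genes fell with 4OHT and the same 3, BRCA1, BARD1 and BRCA2, rose with 3DA. BARD1 (ENSG00000138376), the partner of BRCA1 in a ubiquitin ligase, stood at 29.6, 30.9, 24.7 and 27.6 CPM with DMSO, 2.90, 2.63, 3.25 and 2.74 CPM with 4OHT and 10.03, 14.3, 16.7 and 11.8 CPM with 4OHT+3DA. The groups did not overlap in any of the comparisons: BARD1 fell 9.75-fold with 4OHT (log2 fold change −3.29, SE 0.17, adjusted p = 3.2e-12), rose 4.58-fold with 3DA (log2 fold change 2.20, SE 0.17, adjusted p = 2.1e-08) and stayed 2.13-fold below DMSO. BRCA2, which loads the recombinase, gave 10.6, 9.98, 10.5 and 12.6 CPM with DMSO, 1.26, 2.31, 2.35 and 1.93 CPM with 4OHT and 2.82, 7.74, 13.5 and 4.56 CPM with 4OHT+3DA. Its 4OHT+3DA values spread more than those of BARD1, with library 31 above every DMSO library and library 29 far below. BRCA2 fell with 4OHT (log2 fold change −2.45, adjusted p = 1.1e-05) and rose with 3DA (log2 fold change 1.85, adjusted p = 9.4e-04), by 1.35 without library 31 and by 0.88 without libraries 30 and 31. Against DMSO the difference of −0.60 did not pass the main test with all libraries (adjusted p = 0.104), nor did BRCA2 pass by DESeq2 or with RLE factors. Without library 31 the difference was −1.10, adjusted p = 4.1e-04, and without libraries 30 and 31 −1.57. With all libraries BRCA2 was called lower by limma-voom (−0.82, adjusted p = 0.0289) and with library totals (−0.71, adjusted p = 0.0492). The same held with no filter on low counts (−0.56, adjusted p = 0.00817) and with a correction for GC content (−0.90, adjusted p = 0.00317). BRCA1 averaged 12.3 ± 1.51 CPM with DMSO, 4.14 ± 1.93 with 4OHT and 7.22 ± 1.92 with 4OHT+3DA (mean ± SD, n = 4), and fell by 1.54 on the log2 scale with 4OHT (adjusted p = 4.7e-05). The rise of BRCA1 with 3DA, 0.78 (adjusted p = 0.0314), depended on single libraries: it did not pass without 4OHT library 21 (0.58, adjusted p = 0.0948), without 4OHT library 23 (0.64, adjusted p = 0.106), without 4OHT+3DA library 29 (0.74, adjusted p = 0.0544) or without library 31 (0.61, adjusted p = 0.0767). PALB2 (ENSG00000083093), the protein that bridges BRCA1 and BRCA2, stood at 17.1, 14.3, 13.6 and 16.8 CPM with DMSO, 15.1, 14.3, 12.6 and 16.9 CPM with 4OHT and 16.4, 13.9, 21.6 and 15.5 CPM with 4OHT+3DA. The 3 groups of PALB2 overlapped, and none of its log2 fold changes (−0.069, 0.19 and 0.13) passed the test. BRCA1 has a partial pseudogene copy next to it, so its counts are less certain.

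Strand exchange is the step in which the filament invades the sister duplex, and all 8 of these genes fell with 4OHT, with a median log2 fold change of −2.16. MND1 (ENSG00000121211), which forms with PSMC3IP a dimer known for meiotic strand exchange, stood at 4.70, 7.81, 5.45 and 4.48 CPM with DMSO, 0.387, 0.0798, 0.967 and 0.467 CPM with 4OHT and 2.94, 2.58, 2.71 and 2.004 CPM with 4OHT+3DA. It is a lowly expressed gene, with 272, 26 and 175 reads over the DMSO, 4OHT and 4OHT+3DA groups, and the groups did not overlap. The MND1 level fell 11.2-fold with 4OHT (log2 fold change −3.49, SE 0.36, adjusted p = 1.3e-07), the lowest value of the members, and rose 5.14-fold with 3DA (log2 fold change 2.36, SE 0.38, adjusted p = 1.5e-04), the highest of the members. Without 4OHT library 23, the highest of its group, the log2 fold changes of MND1 were −4.11 and 2.99, and after thinning all libraries to the smallest total −4.16 and 3.03. RAD54L (ENSG00000085999), a motor protein that helps the filament pair with its target, stood at 10.5, 14.8, 11.73 and 9.61 CPM with DMSO, 1.55, 1.12, 1.59 and 1.27 CPM with 4OHT and 5.46, 4.75, 5.76 and 4.56 CPM with 4OHT+3DA. Its 4OHT+3DA libraries all lay between the 4OHT libraries, the lowest, and the DMSO libraries, the highest. RAD54L fell by 3.07 and rose by 1.89 on the log2 scale (adjusted p = 1.5e-10 and 1.8e-06), and with 3DA it was still lower than with DMSO (−1.18, adjusted p = 6.8e-06). RAD51C (ENSG00000108384), a recombinase paralogue found in complexes with XRCC2 or XRCC3, moved least of the 8: 36.6, 35.1, 34.9 and 36.1 CPM with DMSO, 29.4, 28.2, 24.5 and 26.8 CPM with 4OHT and 32.96, 32.8, 36.5 and 27.4 CPM with 4OHT+3DA. Its fall of 1.31-fold with 4OHT passed the test (log2 fold change −0.39, adjusted p = 0.0022), while its difference with 3DA did not (0.26, adjusted p = 0.0562). Among the libraries left out, that difference passed only without 4OHT+3DA library 32 (0.33, adjusted p = 0.0113). It also passed by DESeq2 (adjusted p = 0.0468), with library totals (adjusted p = 0.0184) and after thinning (adjusted p = 0.0393).

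The other 5 strand-exchange genes all fell with 4OHT and rose with 3DA. The paralogue XRCC2 averaged 7.76 ± 2.09 CPM with DMSO, 1.22 ± 0.525 with 4OHT and 3.92 ± 0.217 with 4OHT+3DA, log2 fold changes of −2.70 and 1.72. RAD51AP1, which helps form the joint molecule, went from 21.4 ± 2.58 to 3.86 ± 0.384 CPM (−2.47) and to 12.2 ± 3.74 CPM with 3DA (1.66). RAD54B, PSMC3IP and XRCC3 fell by 1.86, 1.64 and 1.58 and rose by 1.19, 0.81 and 1.22 on the log2 scale. Against DMSO, XRCC2, RAD51AP1, PSMC3IP, RAD54B, MND1 and RAD54L were lower with 4OHT+3DA. That call was fragile for RAD54B (log2 fold change −0.67, adjusted p = 0.0468): it was lost without any of DMSO libraries 17 to 20 (−0.62, −0.69, −0.72 and −0.64), 4OHT library 21 (−0.66), or 4OHT+3DA libraries 30 (−0.62) and 32 (−0.56). For XRCC3 the difference of −0.36 did not pass the main test (adjusted p = 0.0569). Among the libraries left out, it passed without DMSO library 19 (−0.45, adjusted p = 0.0248) or 4OHT+3DA library 32 (−0.47, adjusted p = 0.0146). XRCC3 was also called lower by DESeq2 (adjusted p = 0.0458), limma-voom (adjusted p = 0.0366), library totals (adjusted p = 0.0206) and after thinning (adjusted p = 0.0318). The same held with a minimum mean CPM of 1 (adjusted p = 0.0493) and with only the 8 libraries compared (adjusted p = 0.0477). Without strand in the reads, PSMC3IP and XRCC3 are uncertain, since 49.9% and 45.3% of their exonic bases lie across from exons of MLX and KLC1. The same holds for RAD54L with LRRC41 (18%), and RAD54B shares 63.3% of its exonic bases with FSBP on its own strand.

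Among the genes of break sensing and resection, the nuclease EXO1 fell steeply and the subunits of the MRE11-RAD50-NBN complex gave different results. With 4OHT 3 of 5 fell, EXO1, MRE11 and RBBP8, and with 3DA all 5 rose. After a correction for GC content 3 of 5 rose with 3DA, and MRE11 and RAD50 were not called. EXO1 (ENSG00000174371), which chews back the broken end over long distances, stood at 20.7, 24.1, 20.1 and 20.8 CPM with DMSO, 2.61, 1.995, 1.24 and 2.87 CPM with 4OHT and 8.77, 10.5, 10.9 and 7.88 CPM with 4OHT+3DA. It fell 9.87-fold with 4OHT (log2 fold change −3.30, SE 0.19, adjusted p = 2.7e-11) and rose 4.39-fold with 3DA (log2 fold change 2.13, SE 0.20, adjusted p = 2.1e-07), with no overlap between any groups. NBN (ENSG00000104320), the subunit that recruits ATM, had the highest level per length of all members in each group and stood at 87.8, 94.4, 85.1 and 82.02 CPM with DMSO, 97.7, 97.8, 104 and 97.6 CPM with 4OHT and 115, 147, 201 and 110.4 CPM with 4OHT+3DA. The 4 values with 4OHT lay above those with DMSO, those with 3DA above both, and library 31 was the highest by a wide margin. NBN did not pass the test with 4OHT (log2 fold change 0.19, adjusted p = 0.258), but did when library 31 was left out of the shared fit (0.19, adjusted p = 0.0422). It also passed with only the 8 libraries compared (0.18, adjusted p = 0.0146) and without libraries 30 and 31 (0.19, adjusted p = 0.00949). Corrected for GC content, NBN passed with library 31 (0.26, adjusted p = 0.00464) and without it (0.26, adjusted p = 9.1e-04). With 3DA it rose over 4OHT (0.53, SE 0.13, adjusted p = 0.00648) and over DMSO (0.72, SE 0.13, adjusted p = 1.8e-04), the only gene of these 5 called higher than DMSO with all libraries. Without library 31 the rise of NBN over 4OHT was 0.32, adjusted p = 0.00497, and without libraries 30 and 31 it was 0.18, adjusted p = 0.0826, while over DMSO it was then 0.37, adjusted p = 1.7e-04.

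MRE11, the nuclease subunit, fell with 4OHT from 19.1 ± 2.19 to 10.2 ± 0.692 CPM (−0.90, adjusted p = 2.1e-04) and rose to 14.8 ± 4.59 CPM with 3DA (0.54, adjusted p = 0.0254). The rise of MRE11 was lost without 4OHT library 22 (0.50, adjusted p = 0.0715), 4OHT library 24 (0.53, adjusted p = 0.0563) or 4OHT+3DA library 31 (0.32, adjusted p = 0.093). It was also lost with only the 8 libraries compared (0.55, adjusted p = 0.0566) and with GC correction (0.30, adjusted p = 0.0905). Against DMSO, MRE11 with 4OHT+3DA did not pass the main test (−0.36, adjusted p = 0.0725), but was lower without library 31 (−0.58, adjusted p = 8.6e-04). With all libraries it was called lower by limma-voom (−0.39, adjusted p = 0.0497), with library totals (−0.47, adjusted p = 0.0183) and with GC correction (−0.52, adjusted p = 0.00121). RAD50, the subunit that holds the ends together, averaged 41.4 ± 2.47 CPM with DMSO, 36.8 ± 1.78 with 4OHT and 47.6 ± 12.8 with 4OHT+3DA, the last mean being 41.9 CPM without library 31. The call of RAD50 with 3DA (0.37, adjusted p = 0.045) was lost in 17 of 24 alternatives. Among them was each library left out except 4OHT+3DA libraries 29 and 32, with log2 fold changes from 0.19 without library 31 to 0.40 without 4OHT library 23. GC correction was another (0.23, adjusted p = 0.0755). Against DMSO, RAD50 was not called (log2 fold change 0.20), except without 4OHT+3DA library 32 (0.31, adjusted p = 0.0484). Of its exonic bases, 90.6% also lie in another annotated gene on the same strand, so its counts are uncertain. RBBP8, which starts resection, fell by 0.75 with 4OHT (adjusted p = 1.0e-04) and rose by 0.60 with 3DA (adjusted p = 0.0026), and its difference from DMSO then was −0.15 and not called.

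Junction processing takes the joined duplexes apart, and all 5 of these genes fell with 4OHT by more than 2-fold. BLM (ENSG00000197299), the helicase mutated in Bloom syndrome, stood at 11.5, 6.38, 10.6 and 9.32 CPM with DMSO, 0.870, 1.60, 1.38 and 1.13 CPM with 4OHT and 4.86, 5.11, 7.09 and 4.70 CPM with 4OHT+3DA. It fell 7.43-fold (log2 fold change −2.89, SE 0.24, adjusted p = 6.7e-09) and rose 4.31-fold with 3DA (log2 fold change 2.11, SE 0.25, adjusted p = 4.3e-06), where library 31 overlapped the DMSO range and the other 3 did not. GEN1 (ENSG00000178295), a nuclease that cuts cross-shaped junctions, fell least of the set and stood at 10.1, 12.01, 9.51 and 12.03 CPM with DMSO, 5.03, 4.63, 2.83 and 5.27 CPM with 4OHT and 7.32, 12.95, 11.9 and 7.95 CPM with 4OHT+3DA. Its 4OHT values lay below all others, and of the libraries with 3DA 30 and 31 reached the DMSO values while 29 and 32 lay below them: GEN1 fell by 1.31 (adjusted p = 3.9e-05), rose by 1.19 (adjusted p = 3.8e-04) and differed from DMSO by −0.12 (adjusted p = 0.636). Without libraries 30 and 31 it was lower than DMSO (−0.52, adjusted p = 0.0388). EME1, the partner of the nuclease MUS81, fell by 2.27 and rose by 1.501, and RMI1, a scaffold of the BLM complex, fell by 1.39 and rose by 0.90 on the log2 scale. RMI2, the other scaffold of that complex, had only 74, 12 and 45 reads over the 3 groups. It fell by 2.72 (adjusted p = 2.2e-04), and gave −3.47 without 4OHT library 23, and its difference of 1.49 with 3DA did not pass (adjusted p = 0.056), though it did without 4OHT library 23 (2.24, adjusted p = 0.0224) or 4OHT+3DA library 32 (1.68, adjusted p = 0.0337). With all libraries that difference also passed by DESeq2 (adjusted p = 0.0467), with library totals (adjusted p = 0.0441) and with GC correction (adjusted p = 0.0412). Of the exonic bases of EME1, 10.3% lie across from exons of LRRC59. Against DMSO, BLM, EME1, RMI1 and RMI2 were lower with 4OHT+3DA. The call of EME1 (−0.77, adjusted p = 0.00903) was lost without 4OHT+3DA libraries 30 and 31 (−0.43, adjusted p = 0.138). The call of RMI1 (−0.49) was lost without DMSO library 17 (−0.44) or 4OHT+3DA library 32 (−0.35), and that of RMI2 (−1.23) without DMSO library 17 (−0.96), 4OHT+3DA library 30 (−1.16) or library 32 (−1.04).

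In the Fanconi core complex, 7 of 8 genes fell with 4OHT and 6 of 8 rose with 3DA. FANCE (ENSG00000112039), the subunit that holds FANCD2 to the complex, stood at 4.70, 4.28, 3.60 and 4.04 CPM with DMSO, 0.387, 1.84, 1.45 and 0.867 CPM with 4OHT and 1.92, 2.12, 1.499 and 2.28 CPM with 4OHT+3DA. The lowest of these values was 4OHT library 21, and the DMSO libraries lay above all others. FANCE fell 3.57-fold with 4OHT (log2 fold change −1.84, SE 0.31, adjusted p = 4.8e-05), but its difference of 0.75 with 3DA did not pass (adjusted p = 0.087). Among the libraries left out, that difference passed only without 4OHT library 22 (1.05, adjusted p = 0.0341). It also passed with each library corrected for its trend of relative level over GC content (0.84, adjusted p = 0.0479). With that correction and without library 31 it was 0.90, adjusted p = 0.0475. FANCM (ENSG00000187790), the DNA translocase that anchors the complex on chromatin, stood at 7.64, 8.71, 8.87 and 7.997 CPM with DMSO, 5.61, 5.83, 5.67 and 8.94 CPM with 4OHT and 10.2, 9.65, 16.9 and 7.74 CPM with 4OHT+3DA. Its groups overlapped, with 4OHT library 24 above every DMSO library and 4OHT+3DA library 31 the highest of all 12. The difference with 4OHT did not pass (log2 fold change −0.34, adjusted p = 0.201), and FANCM rose with 3DA over 4OHT (0.77, SE 0.21, adjusted p = 0.0113), by 0.49, adjusted p = 0.0399 without library 31. That call was lost without libraries 30 and 31 (0.46, adjusted p = 0.121) and with the same GC correction, without library 31 (0.36, adjusted p = 0.119). Over DMSO its difference of 0.42 passed only without 4OHT+3DA library 32 (0.56, adjusted p = 0.0259) among the libraries left out. It also passed with no filter on low counts (0.47, adjusted p = 0.0233).

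FANCA and FANCB showed how evenly or unevenly the 4 libraries with 3DA could lie. FANCA, a scaffold subunit, gave 15.2 ± 1.15 CPM with DMSO, 4.64 ± 0.687 with 4OHT and 11.6 ± 0.300 with 4OHT+3DA, a fall of 1.72 and a rise of 1.32 on the log2 scale. FANCB, which joins the ubiquitin ligase subunit FANCL in 1 module, stood at 8.72, 7.88, 8.77 and 7.70 CPM with DMSO, 1.93, 2.71, 3.04 and 2.53 CPM with 4OHT and 6.004, 8.26, 12.4 and 5.39 CPM with 4OHT+3DA. Its rise with 3DA was 1.64 (SE 0.24, adjusted p = 5.2e-05) and 1.35 without library 31, whose value of 12.4 CPM lay above every DMSO library. FANCL itself and FANCG fell by 1.31 and 1.64 and rose by 0.76 and 1.04. FANCF fell by 0.74 and rose by 0.61, a rise not called without libraries 30 and 31 (0.45, adjusted p = 0.0766). FANCC fell by 0.74 and its difference of 0.26 with 3DA did not pass (adjusted p = 0.164). Against DMSO, FANCA, FANCC, FANCE, FANCG and FANCL were lower with 4OHT+3DA and FANCB, FANCF and FANCM were not called. The call of FANCA (−0.39, adjusted p = 0.0105) was lost with GC correction (−0.25, adjusted p = 0.0894), with that correction and without library 31 (−0.29, adjusted p = 0.0721) and with no filter on low counts (−0.35, adjusted p = 0.0807). FANCB was called lower than DMSO without libraries 30 and 31 (−0.53, adjusted p = 0.0315) and with GC correction without library 31 (−0.41, adjusted p = 0.0414), against −0.034 with all libraries. Exons of ZNF276 and VRK2 lie across from 22.4% and 26.6% of the exonic bases of FANCA and FANCL, so their counts may hold reads of the other gene.

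The clamp genes FANCD2 and FANCI and the helicase gene BRIP1 fell with 4OHT, rose with 3DA and remained below DMSO, all 3 in each comparison. FANCD2 (ENSG00000144554), the clamp subunit whose ubiquitin mark is the pathway's main signal, stood at 19.01, 20.6, 20.2 and 18.6 CPM with DMSO, 2.998, 3.11, 2.83 and 2.20 CPM with 4OHT and 8.29, 6.91, 7.55 and 6.29 CPM with 4OHT+3DA. The groups were well apart in each comparison: FANCD2 fell 7.07-fold (log2 fold change −2.82, SE 0.15, adjusted p = 5.9e-12), rose 2.62-fold with 3DA (1.39, SE 0.15, adjusted p = 2.1e-06) and was then 2.70-fold below DMSO (−1.43, SE 0.13, adjusted p = 2.4e-08), the lowest log2 fold change of the members in that comparison. FANCI (ENSG00000140525), the other subunit of the clamp, stood at 46.3, 52.5, 53.1 and 48.1 CPM with DMSO, 13.9, 15.01, 11.3 and 11.1 CPM with 4OHT and 25.4, 30.9, 24.5 and 24.7 CPM with 4OHT+3DA. FANCI fell 3.92-fold (−1.97, SE 0.12, adjusted p = 3.4e-11) and rose 2.07-fold (1.05, SE 0.12, adjusted p = 2.1e-06). BRIP1, a helicase that binds BRCA1, averaged 14.4 ± 1.65 CPM with DMSO, 2.41 ± 1.084 with 4OHT and 5.76 ± 2.05 with 4OHT+3DA, and 4.75 CPM in the last group without library 31. Copies of FANCD2 sequence elsewhere in the genome make its counts less certain.

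Of the 5 checkpoint genes 3, TOPBP1, CHEK1 and CHEK2, fell with 4OHT, 1 rose, and 0 were called with 3DA. TOPBP1 (ENSG00000163781), which switches on ATR, stood at 16.8, 21.5, 18.6 and 18.1 CPM with DMSO, 6.48, 11.5, 10.2 and 12.3 CPM with 4OHT and 10.7, 16.6, 18.5 and 11.5 CPM with 4OHT+3DA. It fell 1.83-fold with 4OHT (log2 fold change −0.87, SE 0.19, adjusted p = 6.6e-04), with the 4OHT and DMSO libraries apart. CHEK1, the kinase that carries the ATR signal, averaged 34.3 ± 2.04 CPM with DMSO, 21.1 ± 2.64 with 4OHT and 25.5 ± 2.24 with 4OHT+3DA, and it was lower than DMSO both with 4OHT (−0.70, adjusted p = 1.4e-05) and with 4OHT+3DA (−0.43, adjusted p = 0.00169). CHEK2, the effector of ATM, fell by 0.47 with 4OHT (adjusted p = 0.00718) and has pseudogene copies that can share its reads. With 3DA the log2 fold changes of the 5 genes over 4OHT ran from 0.017 for ATM to 0.49 for TOPBP1, with 0 called by edgeR, 1 by DESeq2 and 0 by limma-voom, and 2 at an unadjusted p under 0.05. Near the threshold, TOPBP1 (adjusted p = 0.0573) passed without 4OHT library 24 (0.60, adjusted p = 0.0419) or 4OHT+3DA library 29 (0.61, adjusted p = 0.0181) or 32 (0.58, adjusted p = 0.0293), and CHEK1 (0.27, adjusted p = 0.06) without 4OHT library 22 (0.36, adjusted p = 0.0228) or 4OHT+3DA library 32 (0.32, adjusted p = 0.028). With all libraries TOPBP1 also passed by DESeq2 (0.50, adjusted p = 0.0434), library totals (0.55, adjusted p = 0.0296) and no filter on low counts (0.52, adjusted p = 0.00386). CHEK1 then passed with library totals (0.33, adjusted p = 0.0228). Against DMSO, TOPBP1 was not called with all libraries (−0.38, adjusted p = 0.0848). Among single libraries left out, it was lower only without library 31 (−0.52, adjusted p = 0.0122). It was also lower without libraries 30 and 31 (−0.75, adjusted p = 0.0016) and with GC correction (−0.40, adjusted p = 0.0371). The same held with that correction and without library 31 (−0.48, adjusted p = 0.0153) and with library totals (−0.48, adjusted p = 0.0287).

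ATM and ATR, the kinases at the top of the signal, were with NBN the members called higher in any comparison with DMSO. ATM (ENSG00000149311), mutated in ataxia telangiectasia, stood at 14.02, 13.2, 13.7 and 11.8 CPM with DMSO, 16.7, 16.5, 16.5 and 17.3 CPM with 4OHT and 14.2, 17.9, 22.4 and 13.3 CPM with 4OHT+3DA. All 4 libraries with 4OHT lay above those with DMSO, while the libraries with 3DA overlapped both groups. ATM rose 1.28-fold with 4OHT (log2 fold change 0.35, SE 0.14, adjusted p = 0.0479), and the call was lost in 14 of 24 alternatives. These included leaving out any 1 of the 8 libraries compared (0.29 without DMSO library 20 to 0.38 without DMSO library 17), leaving out 4OHT+3DA library 30 (0.35), limma-voom (0.36), RLE factors (0.35) and library totals in place of TMM factors (0.19). Against DMSO, ATM with 4OHT+3DA was higher by 0.37 (adjusted p = 0.0364), a call lost without DMSO libraries 18, 19 or 20 (0.37, 0.39 and 0.31), without 4OHT+3DA library 30 (0.35) and without library 31 (0.21). ATR (ENSG00000175054), which answers stalled replication, stood at 19.7, 17.8, 19.9 and 18.4 CPM with DMSO, 21.2, 21.6, 19.35 and 23.8 CPM with 4OHT and 22.2, 23.8, 27.9 and 19.9 CPM with 4OHT+3DA. Its 4OHT+3DA libraries lay above its DMSO libraries, library 32 by little, and the difference of 0.31 (SE 0.11, adjusted p = 0.0258) was lost without DMSO library 18 (0.28), DMSO library 20 (0.29), 4OHT+3DA library 30 (0.31) or library 31 (0.22). With 4OHT the ATR difference of 0.18 did not pass (adjusted p = 0.184), nor did that of 0.13 with 3DA over 4OHT. After GC correction ATR was called higher with 4OHT (0.27, adjusted p = 0.016), also without library 31 (0.27, adjusted p = 0.0178).

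**Figure D3:**
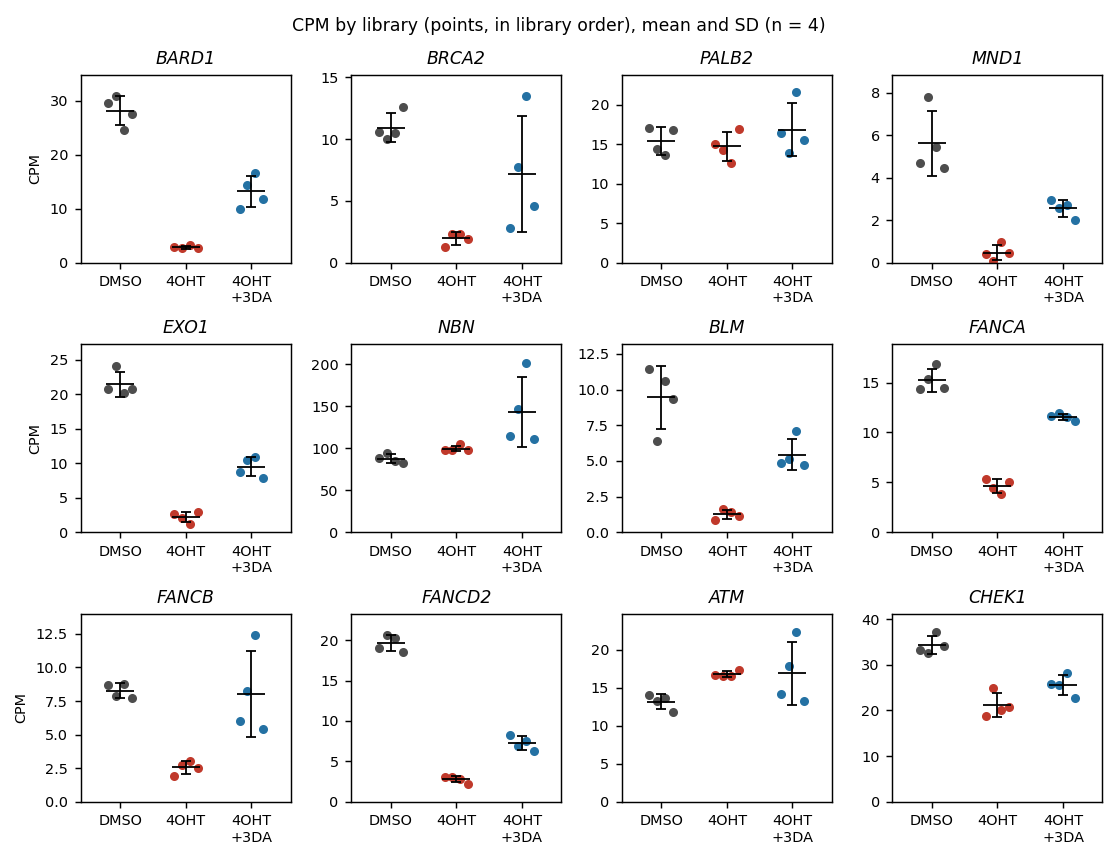
Each panel gives the CPM of 1 member in the 12 libraries (points, in library order within a group), with the group mean and SD (n = 4), on axes that start at 0. BARD1, MND1, EXO1, BLM and FANCD2 show a low 4OHT group and an intermediate 4OHT+3DA group, PALB2 shows 3 overlapping groups, and library 31 is the highest point of its group for BRCA2, NBN, FANCB and ATM.

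Compared per length, as mean CPM per kb of exonic sequence, the members spanned a wide range. In the DMSO group NBN was the highest at 17.96 CPM per kb, followed by RAD51C at 12.1, RAD51AP1 at 9.88 and FANCI at 9.66, and RMI2 was the lowest at 0.500. With 4OHT, NBN and RAD51C kept ranks 1 and 2 of 38 at 20.4 and 9.19 CPM per kb, while RAD51AP1 went to rank 14 at 1.78 and EXO1 from rank 10 to rank 25 at 0.628. RAD50, CHEK1, RBBP8, PALB2 and CHEK2 took ranks 3 to 7 with 4OHT. ATM, a long transcript at rank 37 with DMSO (0.720 CPM per kb), stood at rank 20 with 4OHT (0.917) and at rank 31 with 4OHT+3DA (0.926). With 4OHT+3DA, RAD51AP1 was at rank 5 (5.64 CPM per kb) and EXO1 at rank 17 (2.74). BRCA2 was among the 4 lowest in each group, at 0.912, 0.164 and 0.597 CPM per kb with DMSO, 4OHT and 4OHT+3DA. Neighbours in this order can lie within the spread of their libraries, as BRCA1 (0.529) and BARD1 (0.523) do with 4OHT.

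Library 31 was high mainly for members of low GC content. For the 19 members below the median GC content, library 31 exceeded the mean of libraries 29, 30 and 32 by a median of 0.54 on the log2 scale, and for the 19 at or above it by 0.076. BRCA2, with 36.3% GC, was 1.42 higher in library 31, FANCB (36.4%) 0.93 higher and BRIP1 (37.5%) 0.89 higher. At the other end EME1 (50.3%) differed by −0.81, FANCE (57.9%) by −0.49 and FANCG (58.1%) by −0.38, while RMI2 (48.7%) was 1.25 higher on few reads. After a correction for GC content, 28 members were higher with 3DA over 4OHT, 32 were lower and 3 higher with 4OHT, and 24 were lower and 2 higher with 4OHT+3DA against DMSO. The 28 were not the same genes as before it. With 3DA over 4OHT, MRE11 and RAD50 lost their calls, RMI2 and FANCE gained them, and the uncalled ATM and ATR changed sign. Over all 13248 genes tested, the correction gave 1951 higher and 1811 lower with 3DA over 4OHT. With 4OHT it gave 4243 higher and 3324 lower, compared with 3511 and 3378 before it. For 4OHT+3DA against DMSO the all-gene calls were 4161 higher and 3230 lower. The corrected log2 fold changes over 4OHT were 1.49 for BRCA2, 1.32 for FANCB, 1.95 for BARD1 and 2.21 for MND1. How library 31 came to differ was not tested.

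**Figure D4:**
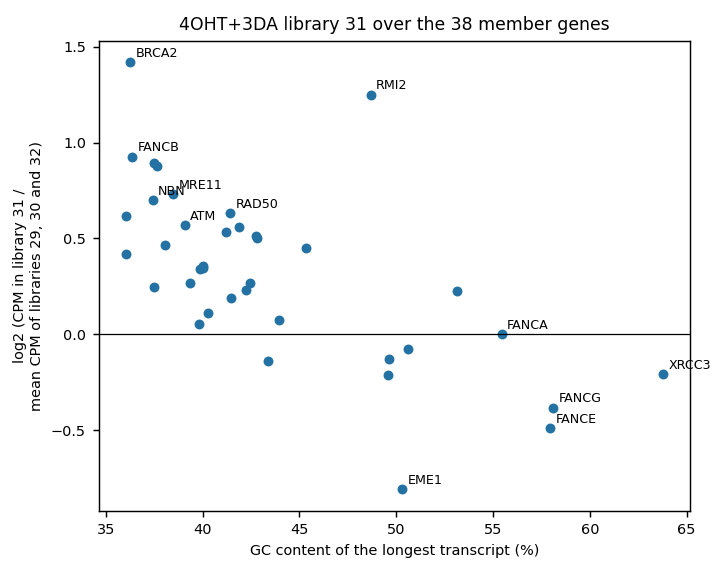
For each of the 38 members, the vertical axis gives log2 of the CPM in 4OHT+3DA library 31 over the mean CPM of libraries 29, 30 and 32, and the horizontal axis the GC content of its longest transcript in percent. BRCA2 lies highest at 1.42 with 36.3% GC, and EME1 lowest at −0.81 with 50.3% GC.

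The promoters of the members at both ends of the 4OHT response are shown because many genes of the dividing cell carry E2F, CHR or CCAAT boxes near the start site, through which E2F factors, the DREAM complex and NF-Y are known to act. Each is a RefSeq window of 300 bases on GRCh38.p14, 250 before the first listed start and 50 from it, 5′ to 3′ on the gene's strand, and the capitals mark matches. MND1 (chr4:153344438-153344737, plus strand), EXO1 (chr1:241847954-241848253, plus) and BARD1 (chr2:214809634-214809933, minus) fell most, and ATM (chr11:108222817-108223116, plus), ATR (chr3:142578684-142578983, minus) and PALB2 (chr16:23641261-23641560, minus) lie at the other end among the members with a promoter in the table.
MND1: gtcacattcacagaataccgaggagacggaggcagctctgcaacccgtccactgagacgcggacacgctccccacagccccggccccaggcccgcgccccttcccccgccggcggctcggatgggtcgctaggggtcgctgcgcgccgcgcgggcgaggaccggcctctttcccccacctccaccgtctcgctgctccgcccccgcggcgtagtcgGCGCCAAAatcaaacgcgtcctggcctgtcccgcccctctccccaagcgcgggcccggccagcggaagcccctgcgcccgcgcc
EXO1: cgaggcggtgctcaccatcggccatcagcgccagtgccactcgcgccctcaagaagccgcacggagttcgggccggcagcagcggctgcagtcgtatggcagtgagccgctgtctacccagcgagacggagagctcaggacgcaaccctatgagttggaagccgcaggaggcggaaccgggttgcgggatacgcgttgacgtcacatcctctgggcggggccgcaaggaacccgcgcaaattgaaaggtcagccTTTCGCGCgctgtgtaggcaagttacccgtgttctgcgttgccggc
BARD1: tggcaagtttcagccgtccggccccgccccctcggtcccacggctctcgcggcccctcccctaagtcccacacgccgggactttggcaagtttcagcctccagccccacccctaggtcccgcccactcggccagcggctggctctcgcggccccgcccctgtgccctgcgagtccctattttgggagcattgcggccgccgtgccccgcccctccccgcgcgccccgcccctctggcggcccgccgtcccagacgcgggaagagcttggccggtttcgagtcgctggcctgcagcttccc
ATM: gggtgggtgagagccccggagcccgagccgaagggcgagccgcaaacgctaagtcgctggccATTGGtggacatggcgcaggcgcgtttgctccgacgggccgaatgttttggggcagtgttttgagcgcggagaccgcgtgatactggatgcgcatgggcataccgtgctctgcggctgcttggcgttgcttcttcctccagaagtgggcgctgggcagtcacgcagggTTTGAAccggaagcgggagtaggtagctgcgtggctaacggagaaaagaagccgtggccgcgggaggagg
ATR: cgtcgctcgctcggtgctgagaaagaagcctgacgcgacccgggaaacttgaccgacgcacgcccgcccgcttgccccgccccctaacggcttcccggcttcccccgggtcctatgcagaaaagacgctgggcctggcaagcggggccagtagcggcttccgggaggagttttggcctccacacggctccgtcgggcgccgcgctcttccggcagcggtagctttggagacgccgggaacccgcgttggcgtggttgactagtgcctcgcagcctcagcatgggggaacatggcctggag
PALB2: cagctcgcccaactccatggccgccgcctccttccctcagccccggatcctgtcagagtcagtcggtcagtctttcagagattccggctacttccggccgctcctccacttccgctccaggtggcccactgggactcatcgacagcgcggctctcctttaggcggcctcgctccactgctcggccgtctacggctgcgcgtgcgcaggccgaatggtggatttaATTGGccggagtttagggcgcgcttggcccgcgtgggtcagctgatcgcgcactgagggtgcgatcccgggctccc
MND1 carries an E2F match on the reverse strand beginning 34 bases before the start, and EXO1 one on the forward strand 4 bases after it, while BARD1 and ATR hold no match of any of these letters, ATM holds a CHR and a CCAAT match and PALB2 a CCAAT match.

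The letters searched on both strands were TTTNGCGC, TTTCCCGC and TTTGGCGC for E2F, the last being a case of the first, TTTGAA for CHR, and CCAAT. Of the 38 members, 34 had 47 promoters in the table. E2F letters occurred in 10 of the 47 promoters (21.3%), those of MND1, EXO1, GEN1, FANCD2, TOPBP1, XRCC2, FANCC, PSMC3IP and CHEK2. The share was 4.86% of 14948 promoters of the genes tested, 3.37% of all 35116 promoters in the table and 52.9% of the 34 promoters of the DNA replication genes. The 2 windows of MND1 overlap and hold the same match, which is counted in both. The genes with an E2F match all fell with 4OHT, but so did 29 of the 34 members with a promoter, with 41 of the 47 windows. No E2F match lay in the 6 promoters of the 5 members with a promoter that did not fall, too few to compare shares. CHR letters occurred in 6.38% of member promoters against 10.7% of those of the genes tested, and CCAAT in 46.8% against 34.7%. Among members, CHR occurred in 4.88% of the promoters of those that fell and 16.7% of the others, and CCAAT in 43.9% and 66.7%. BARD1 and RAD54L, which fell 9.75-fold and 8.43-fold, held no E2F match in these windows. A match describes letters only, and the window may miss other start sites.

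Genes of the same pathways outside the 38 were counted in the same way. Of 27 other recombination genes tested, 11 fell and 3 rose with 4OHT (median log2 fold change −0.18), and 8 rose and 1 fell with 3DA. At the ends were POLQ, the polymerase of microhomology end joining (−2.77), and EME2, another partner of MUS81 (0.70). Of 17 other Fanconi genes, 11 fell and 2 rose with 4OHT (median −0.38), and 5 rose and 1 fell with 3DA. SLX4IP fell by 2.09 and ERCC1, part of the nuclease that unhooks crosslinks, rose by 1.32, from 117 ± 6.84 to 292 ± 9.87 CPM, and fell with 3DA (−0.26, adjusted p = 0.0079). USP1, which removes ubiquitin from the FANCD2 clamp, fell by 1.68 and rose by 1.12. Of 15 genes of the BRCA1-A complex and the chromatin response, 5 fell and 1 rose with 4OHT and 6 rose with 3DA. The histone H2AX fell by 1.001 and the ubiquitin ligase RNF8 rose by 0.35. Of 14 genes of ATR-CHK1 signalling, 9 fell and 1 rose with 4OHT (median −0.78) and 10 rose with 3DA, among them CDC25C, a phosphatase that starts mitosis (−3.21 and 1.51). HUS1, part of the 9-1-1 clamp, rose with 4OHT (0.59).

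Other repair pathways gave medians nearer 0 than that of the members. In non-homologous end joining, which needs no sister chromatid, 2 of 9 genes fell and 1 rose with 4OHT (median −0.083): DCLRE1C, the Artemis nuclease, fell by 0.62 and LIG4, the ligase, rose by 0.70. In nucleotide excision repair 5 of 14 rose and 2 fell (median 0.00088), with RAD23B at −0.64 and UVSSA at 0.69. In base excision repair 5 of 16 fell and 2 rose, from NEIL3 at −2.81 to NEIL2 at 0.53. These splits depend on the scaling: with library totals, 5 nucleotide excision genes fell and 2 rose, 5 end-joining genes fell and 1 rose, 9 base excision genes fell and 2 rose, and 7 genes of the BRCA1-A list fell and 0 rose. Library totals moved the median of all genes from −0.011 to −0.17 with 4OHT against DMSO, and the all-gene calls from 3511 higher and 3378 lower to 2385 and 4727.

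The DNA replication machinery, by contrast, fell as a block: 30 of 30 genes were lower with 4OHT (median −1.68), 26 of 30 rose with 3DA (median 0.79) and 27 stayed below DMSO (median −0.96). MCM10, which helps start replication forks, fell by 2.94 and rose by 1.75, and GINS3, part of the replicative helicase, fell by 0.70. The members' medians were −1.61, 0.97 and −0.52 in the same comparisons, and no test set the lists against each other. Of 19 E2F and DREAM factors, 13 fell and 4 rose with 4OHT and 9 rose with 3DA. E2F7, a repressor, rose by 2.36 with 4OHT, from 33.3 ± 4.34 to 171 ± 13.5 CPM. Its relative E2F8 had 146 reads with DMSO, 1 with 4OHT and 27 with 4OHT+3DA. The 7 proliferation markers (MKI67, TOP2A, CCNA2, CCNB1, CDK1, PCNA and MCM2) all fell with 4OHT, all rose with 3DA and all stayed below DMSO, and their sum was 794 to 840 CPM with DMSO, 180 to 186 CPM with 4OHT and 334 to 423 CPM with 4OHT+3DA. Their part in the members' differences was not tested.

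**Figure D5:**
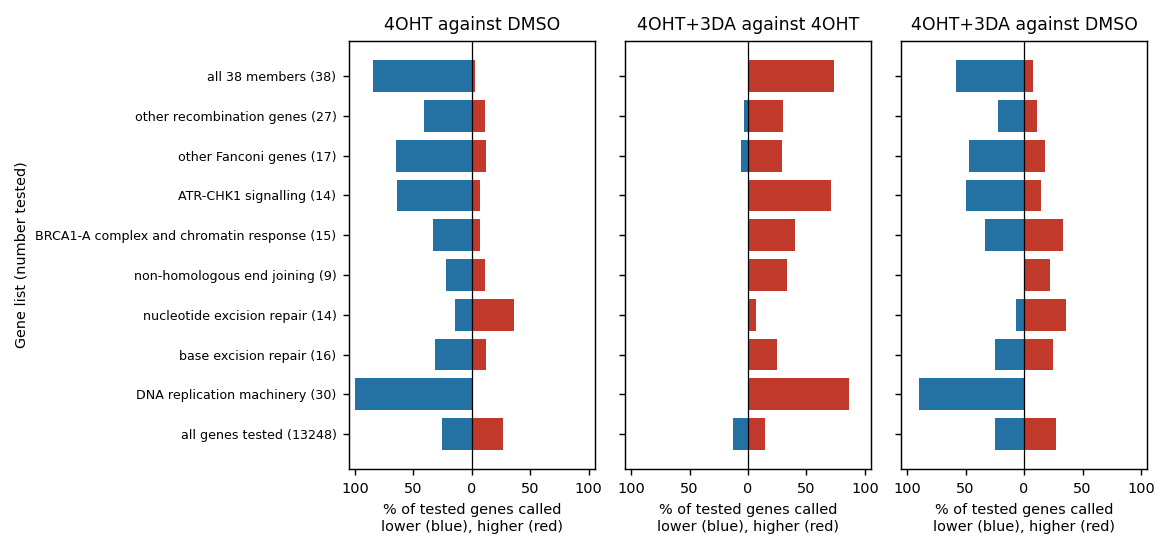
Bars give the percent of tested genes called lower (blue, to the left) and higher (red, to the right) by edgeR in the 3 comparisons, for the members, 7 repair and signalling lists and the replication machinery, with the number tested in parentheses. In the first panel the members stand at 84.2% lower and the DNA replication machinery at 100.0%, and all genes tested stand at 25.5%.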

How the data were processed

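Libraries from IMR90 ER:RAS total RNA, 4 in each of 3 groups, were made with Smart-Seq2 and Nextera XT, per the labels' protocols. The authors deposited a table of raw, whole-number counts by gene. The submitters' processing notes name CASAVA 1.8.2, TopHat2 2.0.11, featureCounts 1.18.0 and the builds hg19 and GRCh37. The sources used here do not give filters, the strand setting or the treatment of multiply matching reads. The kit marks no strand and carries no molecular identifiers, so counts of overlapping or duplicated genes are uncertain, and 8 members share 10% or more of their exonic length with another gene.

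Groups follow the treatment label of each library. The main test was edgeR 4.0.16 (R 4.3.3) on the counts: filterByExpr with a minimum count of 10, TMM factors, 1 quasi-likelihood fit of all 12 libraries with 9 residual degrees of freedom, and Benjamini-Hochberg adjustment over 13248 genes per comparison, called at an adjusted p under 0.05. Each SE is the absolute log2 fold change over the root of the F statistic. The scripts were tested on simulated counts. Of simulated 1.5-fold changes, 47.8% were recovered for 4OHT against DMSO, 52.2% for 4OHT+3DA against 4OHT and 74.6% for 4OHT+3DA against DMSO. A member that was not called may therefore still have changed. Alternatives were DESeq2 1.42.0, limma-voom (limma 3.58.1), RLE factors, library totals, no filter, a mean CPM of at least 1, only the 8 libraries compared, an adjusted p under 0.01, thinning to 9451160 reads and each library left out. A GC correction (loess, span 0.4), that correction without library 31, and leaving out libraries 30 and 31 were chosen after seeing the data.

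Symbols came from a gene name table, exonic lengths, GC content and overlaps from GENCODE 29 and promoters from RefSeq, all on GRCh38. The build differs from that of the counts, so no gene coordinates are given beyond the promoter windows. Members and lists were chosen with earlier results of these data known. Values by library are given for the lowest and highest log2 fold change with 4OHT in each of 7 role groups, the 5 highest and 3 lowest with 3DA, and members called against the majority. BRCA2, FANCB and USP1 were added after their values were seen. Other lists are named by their called genes with the lowest and highest log2 fold change with 4OHT. The counts of 1 further list of repair genes are not reported here. Python 3.11.15 served for tables and plots.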

Additional observations from a re-analysis of the deposited data

Results flagged for a closer look

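In 7 of 114 groups of 4 libraries, each holding 1 member's values in 1 treatment, the highest or lowest library lay far from the other 3, beyond Dixon's 95% critical value for the gap over the range. Chance flags about 1 in 20 groups. XRCC3, the recombinase paralogue, stood at 14.44 CPM in 4OHT+3DA library 32, above the other libraries of its group. NBN stood at 104.5 CPM in 4OHT library 23, above the others. EXO1 stood at 24.10 CPM in DMSO library 18, the highest of its group. EME1 was low in 4OHT library 21, at 0.677 CPM. FANCM was high in 4OHT library 24, at 8.939 CPM, and FANCI in 4OHT+3DA library 30, at 30.91 CPM. BRIP1 stood at 8.819 CPM in 4OHT+3DA library 31, the library with the strongest relation of relative level to GC content.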

How the results depend on the processing

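Of the 33 members called with 4OHT against DMSO, 32 were called in all 24 alternatives that tested them, of the 28 called with 4OHT+3DA against 4OHT 22, and of the 25 called with 4OHT+3DA against DMSO 16. With 1 library left out, 32 members stayed lower with 4OHT and 0 to 2 were higher, 25 to 32 were higher with 3DA over 4OHT, and 19 to 25 were lower and 1 to 5 higher with 4OHT+3DA against DMSO. Over all genes, 1909 rose and 1649 fell with 4OHT+3DA against 4OHT, and 1944 in all were called at an adjusted p under 0.01. Library totals turned the all-gene split of higher and lower calls to 2535 and 1207 with 4OHT+3DA against 4OHT (1909 and 1649 with TMM) and to 2798 and 4035 against DMSO (3572 and 3253 with TMM); the members were then 0 higher and 33 lower with 4OHT, 32 and 0 with 3DA, and 1 and 27 against DMSO. No filter gave 2207 higher and 1371 lower with 3DA. The direction turned for 19 values, none of them called. PALB2 with 4OHT became 0.0043 without 4OHT library 23, 0.0015 with GC correction and 0.0034 with that correction and without library 31, and PALB2 against DMSO became −0.016 without library 31. ATM with 3DA over 4OHT became −0.0055 with limma-voom, −0.063 after thinning, −0.0065 without library 30, −0.14 without library 31, −0.20 with GC correction, −0.25 with both of the last changes and −0.28 without libraries 30 and 31. ATR with 3DA over 4OHT became −0.042 with GC correction, −0.047 with it and without library 31, and −0.027 without libraries 30 and 31. Against DMSO, FANCB became 0.0096 with no filter, 0.086 without 4OHT+3DA library 29 and 0.11 without library 32, GEN1 0.0096 without library 29, and RAD50 −0.12 without libraries 30 and 31. With 1 library left out, these values ran from −0.15 to 0.0043 for PALB2 with 4OHT, −0.14 to 0.12 for ATM with 3DA, and, against DMSO, −0.016 to 0.21 for PALB2, −0.26 to 0.0096 for GEN1 and −0.32 to 0.11 for FANCB. The causes were not tested. No paired analysis was possible because the groups share no replicate numbers. Depth limits the lowest members: RMI2 had 12 reads and MND1 26 over the 4 libraries with 4OHT.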
